A study of Mus musculus with 12 samples.

Results

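The 40 genes described here are the Wnt ligands, receptors, secreted inhibitors and intracellular effectors of the mouse brain libraries. They were taken by name from the 17972 genes of the expression tables: every Wnt, Frizzled (Fzd), secreted Frizzled-related (Sfrp) and Dickkopf (Dkk) gene listed there, with Axin1, Axin2, Lef1, Tcf7, Tcf7l1, Ctnnb1, Apc, Lrp5 and Lrp6. They comprised 15 ligands, 12 receptors (10 Frizzled genes and the co-receptors Lrp5 and Lrp6), 6 inhibitors and 7 effectors. No measured value entered the choice, and all 40 gene IDs matched the GENCODE M21 annotation of GRCm38.

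Wnt proteins are secreted lipid-modified ligands that bind a Frizzled receptor together with an LRP co-receptor. In the canonical branch, binding disables a destruction complex built on Axin and Apc, so that beta-catenin (Ctnnb1) accumulates and acts with the TCF/LEF factors on target genes, of which Axin2 is a feedback target in many tissues. Secreted Frizzled-related proteins bind ligands outside the cell, and classical Dickkopf proteins block the LRP co-receptors. In the adult brain the pathway is known for its part in the maintenance and neuronal differentiation of neural stem cells of the hippocampus and the ventricular wall.

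RNA was sequenced from 12 libraries, 3 in each of 4 groups: knockout (KO) and control tissue from 2 neurogenic regions, the hippocampal dentate gyrus (DG) and the subventricular zone (SVZ) beside the lateral ventricle. KO libraries carry the genotype hGFAP/+;Dpy30F/- and control libraries hGFAP/+;Dpy30F/+, so both groups share hGFAP and 1 F allele, and the second Dpy30 allele differs. Dpy30 is a core subunit of the SET1/MLL complexes that methylate histone H3 at lysine 4, a mark of active promoters. The labels do not spell out hGFAP, F or the minus sign. Lines named hGFAP commonly use the human GFAP promoter to drive Cre in radial glia and their descendants, and cells outside that lineage would keep Dpy30. By label, each sample mixes neural stem cells and progenitors with surrounding cells, and age is not given in the labels. Nothing states that the 3 libraries of a group come from separate animals, so p-values measure the spread between libraries, which may be technical. The libraries of a group are called a, b and c, which pairs nothing across groups.

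Promoters are shown for 5 ligands, because 3 of them (Wnt9b, Wnt1 and Wnt10b) were higher in every SVZ KO library than in every SVZ control library, and the other two (Wnt7a and Wnt2) were lower in every one. Over all 17972 genes of the SVZ, KO libraries lay above all control libraries for 7.47 percent and below them for 8.07 percent, and over the 40 members for 5 and 4. Each sequence is the RefSeq window of GRCm38.p6 with 250 bases before and 50 after the annotated start, written 5′ to 3′ on the strand of the gene, and every CG dinucleotide is in capitals. The windows lie at chr11:103749772-103750071 (minus strand, Wnt9b), chr15:98789607-98789906 (plus, Wnt1), chr15:98778101-98778400 (minus, Wnt10b), chr6:91411304-91411603 (minus, Wnt7a) and chr6:18030396-18030695 (minus, Wnt2).
Wnt9b: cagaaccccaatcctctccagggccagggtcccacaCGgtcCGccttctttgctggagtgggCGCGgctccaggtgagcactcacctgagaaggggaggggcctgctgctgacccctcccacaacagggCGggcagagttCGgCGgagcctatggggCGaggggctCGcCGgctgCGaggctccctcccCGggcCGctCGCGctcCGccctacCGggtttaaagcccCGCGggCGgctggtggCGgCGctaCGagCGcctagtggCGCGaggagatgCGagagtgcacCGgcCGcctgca
Wnt1: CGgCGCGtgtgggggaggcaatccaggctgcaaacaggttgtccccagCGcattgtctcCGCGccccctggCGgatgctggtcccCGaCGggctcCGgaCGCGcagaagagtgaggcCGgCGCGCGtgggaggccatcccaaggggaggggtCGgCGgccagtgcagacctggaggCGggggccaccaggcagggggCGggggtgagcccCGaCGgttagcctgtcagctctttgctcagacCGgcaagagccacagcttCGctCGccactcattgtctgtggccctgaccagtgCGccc
Wnt10b: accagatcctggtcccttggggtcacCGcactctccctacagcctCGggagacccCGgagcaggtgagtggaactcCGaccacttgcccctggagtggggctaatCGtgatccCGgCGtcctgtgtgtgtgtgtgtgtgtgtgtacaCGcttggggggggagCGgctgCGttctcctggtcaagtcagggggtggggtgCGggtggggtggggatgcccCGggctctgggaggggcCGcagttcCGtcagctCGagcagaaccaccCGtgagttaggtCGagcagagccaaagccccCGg
Wnt7a: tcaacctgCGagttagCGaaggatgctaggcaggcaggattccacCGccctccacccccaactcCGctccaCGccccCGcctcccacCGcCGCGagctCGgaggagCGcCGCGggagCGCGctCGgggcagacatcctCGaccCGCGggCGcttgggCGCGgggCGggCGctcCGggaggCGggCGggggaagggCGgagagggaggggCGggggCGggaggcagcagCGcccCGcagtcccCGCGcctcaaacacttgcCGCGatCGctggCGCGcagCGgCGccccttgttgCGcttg
Wnt2: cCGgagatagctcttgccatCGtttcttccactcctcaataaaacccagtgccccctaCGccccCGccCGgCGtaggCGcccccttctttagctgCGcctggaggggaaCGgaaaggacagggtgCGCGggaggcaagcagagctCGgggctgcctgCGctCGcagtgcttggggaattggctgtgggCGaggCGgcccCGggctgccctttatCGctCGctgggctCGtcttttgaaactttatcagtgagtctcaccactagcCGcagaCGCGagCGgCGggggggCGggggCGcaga

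The Wnt7a window is the richest of the 5 in CG, with 42 of them, and 5.41 percent of the 14961 windows of genes in the tables hold at least as many. The Wnt9b, Wnt2 and Wnt1 windows hold 29, 27 and 26, and the Wnt10b window holds 18, against a median of 19 over those 14961 windows. Ligands that were higher and ligands that were lower in SVZ KO therefore both include windows above that median. Over the 26 members with a window, 22 of 33 windows lay above 19, and the range was 4 to 58. The TCF/LEF core, searched as CTTTGAT or CTTTGAA on both strands, was found in 1 member window, of Wnt5b, and in 5.96 percent of all windows. Sfrp1 and Wnt10a have no window in the table used here.

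Levels are in FPKM, fragments per kilobase scaled to library size, as the authors deposited them for each tissue, added up over the transcripts of a gene. From the spacing of low values, a level of 1 FPKM over 1 kb stands for 48.4 to 66.1 reads in DG KO libraries, 26.6 to 42.0 in DG control, 34.0 to 50.2 in SVZ KO and 36.9 to 46.0 in SVZ control. Dpy30 was at 6.22, 6.89 and 5.68 FPKM in DG KO libraries, against 8.43, 8.38 and 10.1 FPKM in DG control libraries. In the SVZ it was at 8.83, 5.04 and 4.87 FPKM in the libraries labelled KO a, b and c, against 7.73, 8.25 and 9.43 FPKM in control. The library labelled SVZ KO a was thus within the control range of the targeted gene, and SVZ results are given with it and without it. In the DG, 3 libraries stand apart: 7 markers of striatal neurons summed to 299 and 662 FPKM in DG KO b and c and to 678 FPKM in DG control b, against 24.1 to 52.9 FPKM in the other DG libraries and 349 to 584 FPKM in the SVZ. The 6 markers of dentate granule neurons summed to 23.6 to 27.5 FPKM in DG KO and to 47.9, 33.8 and 47.2 FPKM in DG control libraries a, b and c, and to 34.2 to 40.5 FPKM in SVZ libraries. DG control a and c thus lay above every SVZ library in these markers, and DG control b and the DG KO libraries below all of them.

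Most of the 40 genes were expressed at low levels. Over the 6 libraries of each tissue, means ran from 0.0516 to 224 FPKM in the DG (median 1.81) and from 0.172 to 221 FPKM in the SVZ (median 1.60), and 11 genes in the DG and 10 in the SVZ lay under 0.5 FPKM and were not tested in the main comparison. Effectors were the most abundant class, led by Ctnnb1 and Apc, and the inhibitor Dkk3 was the third most abundant member in control libraries of both tissues. Among ligands, Wnt7b was highest, with 13.9 FPKM in the DG and 7.54 FPKM in the SVZ on average, and no Frizzled or LRP gene averaged above 5.30 FPKM in the DG or 6.74 FPKM in the SVZ. In control libraries, 36 of the 40 genes overlapped between the tissues. The share over all genes was not computed, so this count shows nothing particular to the Wnt genes. Apc, Fzd3 and Lrp6 were higher in every SVZ than in every DG control library, and Fzd9 was lower, a description without a test because the 2 tables were normalised separately.

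**Figure D1:**
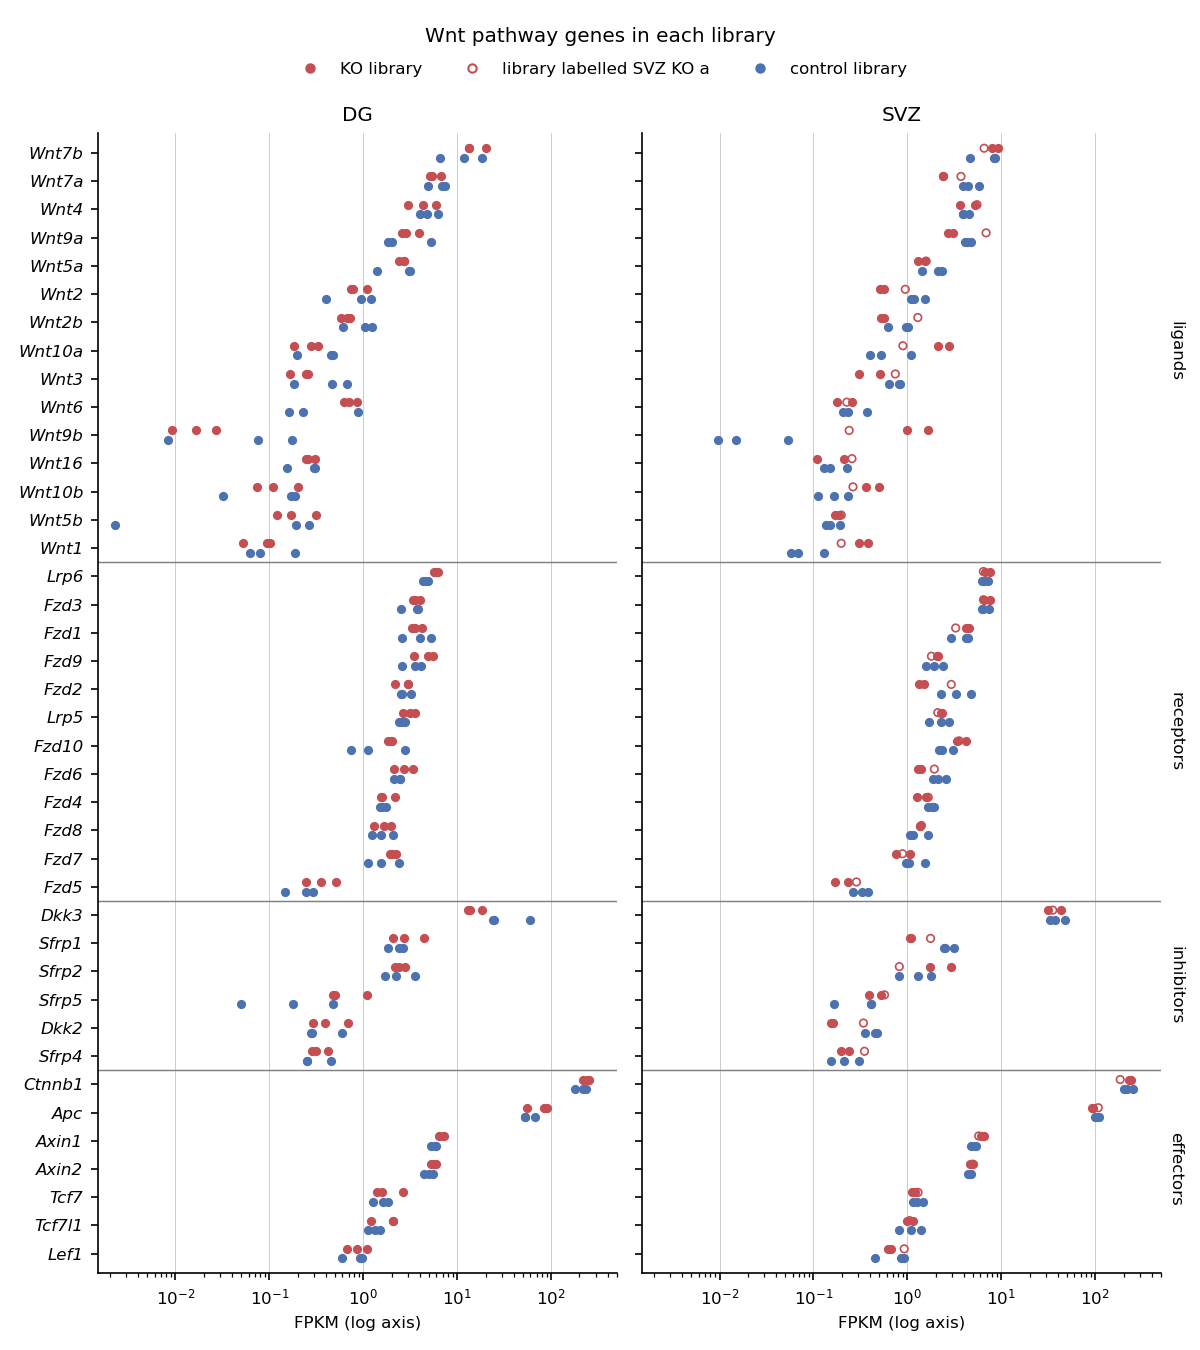
FPKM (log axis) of the 40 Wnt pathway genes in every library of the DG (left) and the SVZ (right), by role, with the KO row above the control row of each gene. Open circles mark the library labelled SVZ KO a. Ctnnb1 and Apc reach the highest values, at the right, in both tissues, and several ligands lie under 0.5 FPKM.

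Each tissue was first compared as a whole, KO with control, in limma with Benjamini-Hochberg adjustment over all tested genes and a threshold of 0.05. None of the 29 tested members passed in the DG, where 0.699 percent of 15441 genes did (52 higher and 56 lower in KO, or 46 and 90 after quantile normalisation and 32 and 99 after median centring), and 3 members were at an unadjusted p under 0.05, against 26.5 percent of all genes. None of the 30 tested members passed in the SVZ with all 6 libraries, where 0.0066 percent of 15148 genes (1 gene) did, and 7 members were at an unadjusted p under 0.05, against 12.7 percent of all genes. Without the library labelled SVZ KO a, 4 of the 30 passed, namely Sfrp1, Wnt7a and Wnt2, which were lower, and Wnt10a, which was higher. The background was then 8.7 percent of 15148 genes, 4.22 percent higher and 4.48 percent lower in KO, and 10 members were at an unadjusted p under 0.05, against 27.4 percent of all genes. Nothing particular to the Wnt genes follows from a count of 4 of 30 beside that share. Median centring of the libraries gave 502 higher and 890 lower genes in this comparison, against 639 higher and 679 lower.

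**Figure D2:**
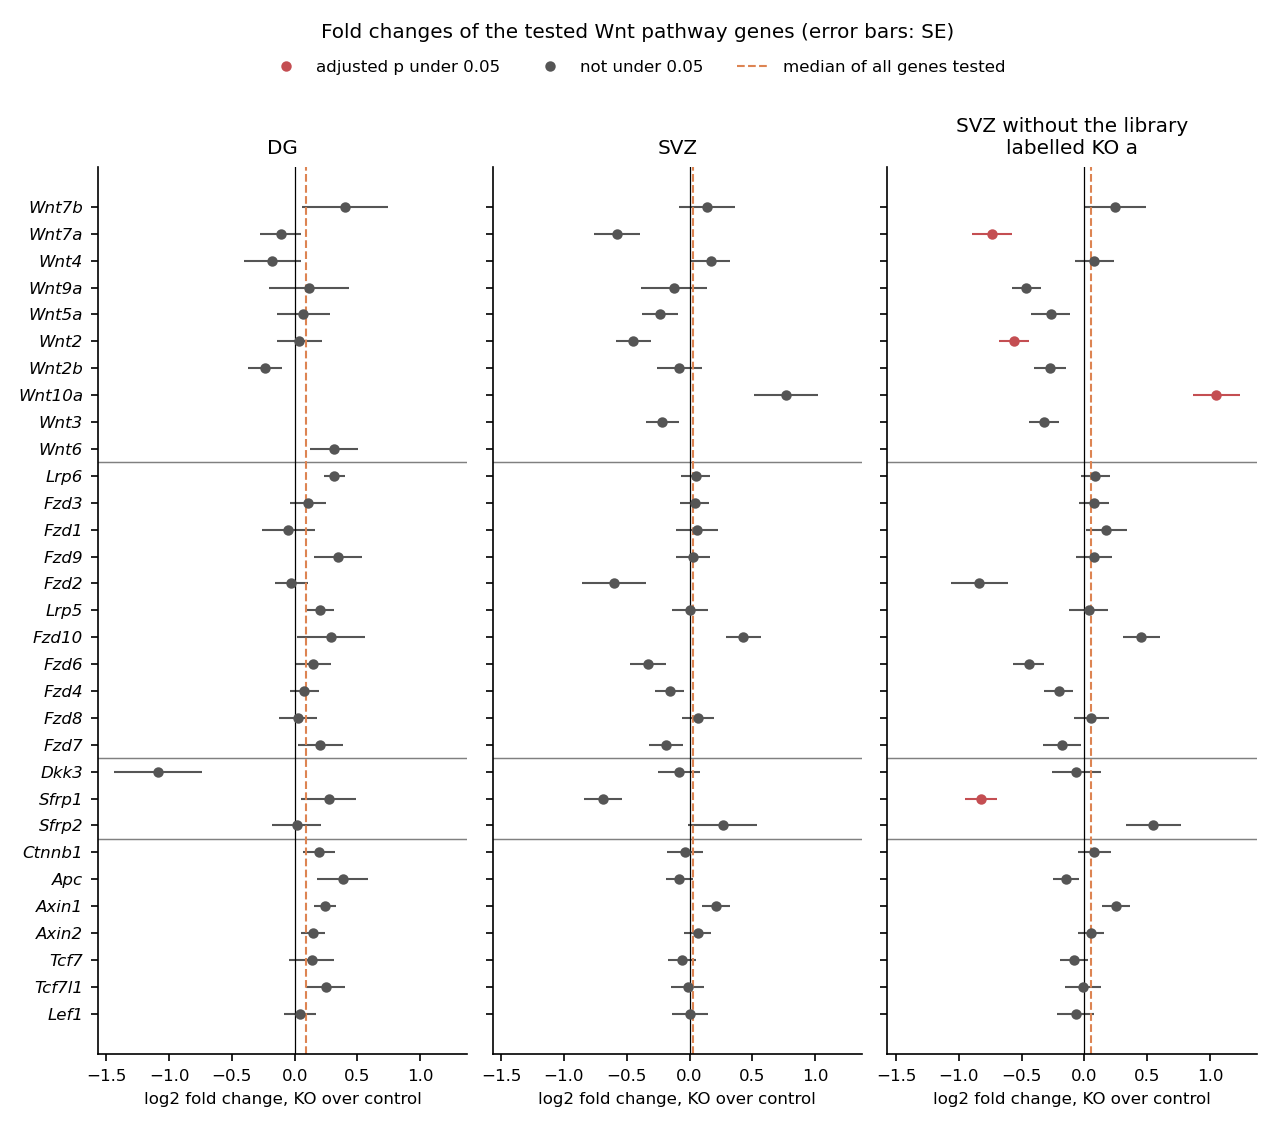
Log2 fold change (KO minus control, log2(FPKM + 1), bars 1 SE) of each tested member in the DG, in the SVZ and in the SVZ without the library labelled KO a. Red marks an adjusted p under 0.05 in limma, and the dashed line is the median of all tested genes. Red appears only in the third panel, at Sfrp1, Wnt7a, Wnt2 and Wnt10a.

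Ligands gave 3 of these 4 calls. Wnt7a (chr6:91363981-91411363, minus strand of GRCm38) encodes a ligand known for a role in the self-renewal of neural stem cells and, with Wnt7b, in the growth of brain vessels. It was at 3.72, 2.39 and 2.37 FPKM in SVZ KO libraries a, b and c, against 4.37, 3.89 and 5.84 FPKM in control. All KO libraries lay below all control libraries, and KO a was the closest to them. The group means were 2.83 ± 0.770 FPKM in KO and 4.70 ± 1.02 FPKM in control (SD, n = 3 each). Without KO a the fit gave -0.74 on the log2 scale (SE 0.160, limma adjusted p = 0.0379), and with it -0.58 (SE 0.183, limma adjusted p = 0.366). The call was lost in limma when control a (adjusted p = 0.0549), control c (0.0569), KO b (0.240) or KO c (0.204) was left out as well, and held without control b.

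Wnt2 (chr6:17988940-18030585, minus strand), another secreted ligand, had the same order of libraries at a lower level. It stood at 0.949, 0.510 and 0.557 FPKM in SVZ KO libraries, against 1.16, 1.10 and 1.55 FPKM in SVZ control libraries. Again no KO library reached the lowest control library. On the log2 scale it differed by -0.56 (SE 0.122, limma adjusted p = 0.0379) without KO a and by -0.45 (SE 0.140, limma adjusted p = 0.366) with it. Leaving out control a (limma adjusted p = 0.0522), control c (0.0689), KO b (0.280) or KO c (0.199) ended the call. In the DG neither ligand separated the groups: Wnt7a was at 5.16, 5.40 and 6.77 FPKM in KO against 6.83, 4.91 and 7.36 FPKM in control, and Wnt2 at 0.733, 0.786 and 1.09 FPKM in KO against 0.402, 0.946 and 1.20 FPKM in control.

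Wnt10a (chr1:74791516-74804179, plus strand) was the 1 tested ligand that passed the threshold as higher in KO. It was at 0.895, 2.74 and 2.12 FPKM in SVZ KO libraries, against 0.523, 0.404 and 1.09 FPKM in SVZ control libraries. KO b and c lay above every control library, and KO a lay below control c. On the log2 scale this came to 1.05 (SE 0.189, limma adjusted p = 0.0233) without KO a, a ratio of means of 3.61, and 0.77 (SE 0.258, limma adjusted p = 0.366) with it. Leaving out control a (limma adjusted p = 0.0504), KO b (0.180) or KO c (0.0840) ended the call. In the DG, Wnt10a lay under the limit of 0.5 FPKM, at 0.331, 0.184 and 0.279 FPKM in KO and 0.199, 0.455 and 0.480 FPKM in control.

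Wnt9b, Wnt1 and Wnt10b averaged under 0.5 FPKM and were named after their values were seen. They are ligands best known from development, Wnt1 at the midbrain-hindbrain boundary and Wnt9b in the kidney. Wnt9b was at 0.240, 1.68 and 0.984 FPKM in SVZ KO libraries, against 0.0150, 0.0538 and 0.00962 FPKM in SVZ control libraries. By the estimated depth of each library these values stand for about 37, 330 and 220 reads in KO and 3, 9 and 2 reads in control. These are estimates, as are those for Wnt1 below, because exact reads were not recovered. The ratio of means, 37.0, thus rests on a control level close to 0. In a limma fit without the filter on low values and without KO a, Wnt9b rose by a log2 fold change of 1.17 (SE 0.124, adjusted p = 0.00536). It held in each of the 5 fits that left out 1 more library, with adjusted p between 0.00412 and 0.0319. With all 6 libraries the adjusted p was 0.383 in limma.

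Wnt1 followed at a lower level, with 0.197, 0.378 and 0.302 FPKM in SVZ KO against 0.0571, 0.0681 and 0.128 FPKM in SVZ control libraries, about 16, 39 and 36 reads against 6, 6 and 14. Without the filter and without KO a it rose by 0.31 on the log2 scale (SE 0.0599, limma adjusted p = 0.0298), a call lost in all 5 fits that left out 1 more library (limma adjusted p between 0.0521 and 0.227). Wnt10b was at 0.263, 0.496 and 0.358 FPKM in SVZ KO against 0.112, 0.230 and 0.166 FPKM in SVZ control libraries (0.29, limma adjusted p = 0.0619). In these 3 ligands every KO library, KO a included, lay above every control library. In the DG the 3 ligands did not separate the groups, and Wnt9b was at 0.0268, 0.00913 and 0.0165 FPKM in KO against 0.0759, 0.00829 and 0.173 FPKM in control. Without the filter 7 of the 40 members passed without KO a, the 4 above with Wnt9b, Wnt1 and Dkk2, against 8.52 percent of 17972 genes.

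**Figure D3:**
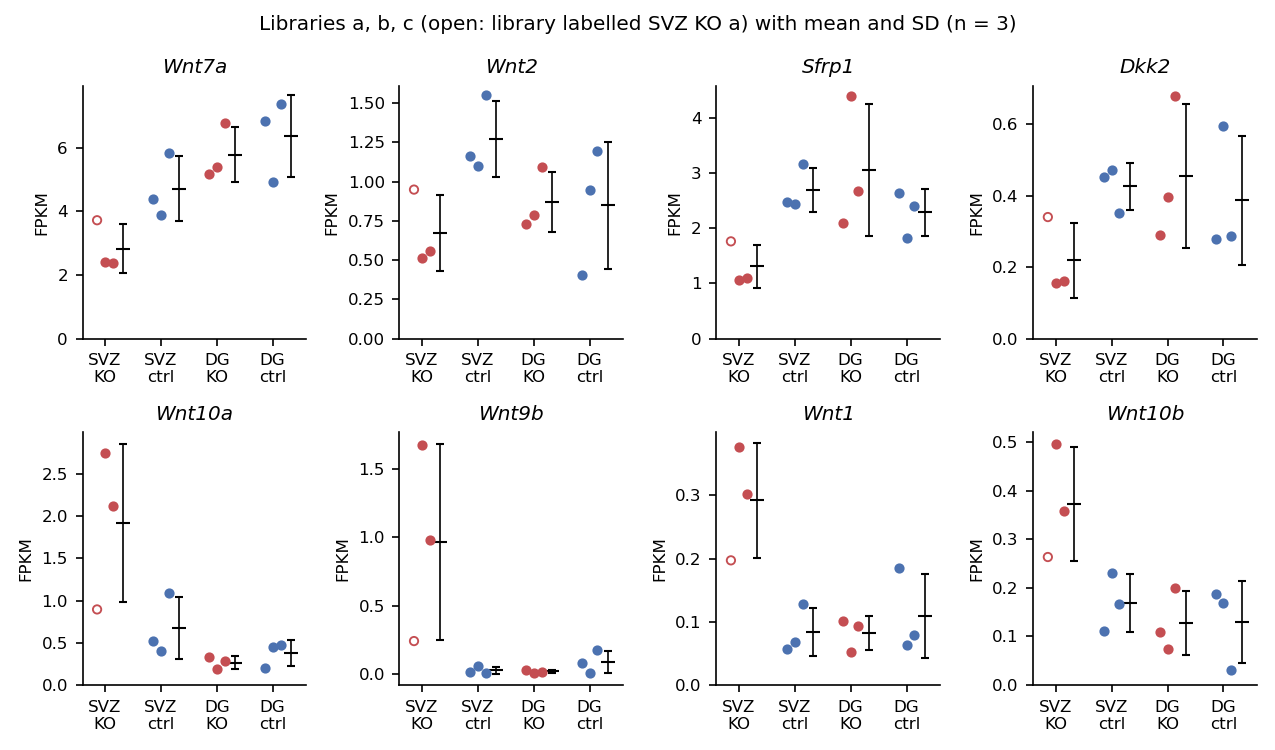
FPKM of Wnt7a, Wnt2, Sfrp1, Dkk2, Wnt10a, Wnt9b, Wnt1 and Wnt10b in each library, with the mean and SD of each group, KO left of control, SVZ left of DG. Open circles mark the library labelled SVZ KO a. In the SVZ the KO libraries of the first 4 genes lie below control and those of Wnt9b, Wnt1 and Wnt10b above, whereas in the DG the groups overlap.

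The ligands that were higher include neighbours in the genome. Wnt10b and Wnt1 lie 11.7 kb apart on chromosome 15, on opposite strands, and both were higher in every SVZ KO library. Wnt9b lies 24.3 kb from Wnt3 on chromosome 11, again on opposite strands. Wnt3 did not follow it, with 0.744, 0.509 and 0.305 FPKM in SVZ KO and 0.824, 0.632 and 0.813 FPKM in SVZ control libraries (log2 fold change -0.32, limma adjusted p = 0.131 without KO a). Wnt6, 6.19 kb from Wnt10a on chromosome 1, averaged 0.222 FPKM in SVZ KO and 0.273 FPKM in SVZ control. These are the 3 pairs of members closer than 100000 bases.

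The other tested ligands did not pass in either tissue with these settings. Wnt7b, the most abundant, was at 13.4, 20.1 and 13.2 FPKM in DG KO against 18.3, 6.51 and 11.9 FPKM in DG control libraries (log2 fold change 0.40, SE 0.345, limma adjusted p = 0.489). In the SVZ it was at 6.56, 7.86 and 9.13 FPKM in KO against 4.60, 8.65 and 8.41 FPKM in control (0.14, limma adjusted p = 0.804). The groups overlapped widely in both. Wnt9a, at 6.88, 3.09 and 2.72 FPKM in SVZ KO and 4.30, 4.73 and 4.12 FPKM in SVZ control libraries, had its highest value in KO a and its lowest in KO b and c (-0.46, limma adjusted p = 0.0539 without KO a). It passed without KO a after quantile normalisation (-0.50, limma adjusted p = 0.0435) and median centring (-0.52, limma adjusted p = 0.0378). Among the tested ligands, 5 of 8 had a positive log2 fold change in the DG (median 0.053) and 3 of 9 in the SVZ (median -0.13), where the medians over all tested genes were 0.090 and 0.027.

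Receptors gave no call in any of the 3 comparisons with the settings above. Among the 11 tested, 9 had a positive log2 fold change in the DG (median 0.15) and 7 in the SVZ (median 0.025), against 65.3 and 55.5 percent of all tested genes. Lrp6, the co-receptor that carries the signal across the membrane, was the member with the lowest adjusted p in the DG. It was at 5.97, 5.72 and 6.29 FPKM in DG KO libraries against 4.36, 4.92 and 4.57 FPKM in DG control libraries, without overlap (means of 5.99 ± 0.286 FPKM in KO and 4.62 ± 0.286 FPKM in control, SD, n = 3 each). The log2 fold change of 0.32 (SE 0.083, 95% interval 0.12 to 0.51) missed the threshold with a limma adjusted p of 0.0857, and KO libraries lay above all control libraries for 25.1 percent of all genes in the DG and for 3 of the 40 members. In the SVZ, Lrp6 overlapped, at 6.44, 7.48 and 6.67 FPKM in KO against 7.14, 6.15 and 6.51 FPKM in control.

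Of the Frizzled genes, Fzd10 was the 1 whose SVZ groups did not overlap with all 6 libraries. It was at 3.55, 4.16 and 3.41 FPKM in SVZ KO against 2.16, 2.33 and 3.03 FPKM in SVZ control libraries (log2 fold change 0.43, SE 0.137, limma adjusted p = 0.366). Without KO a it came to 0.45 (limma adjusted p = 0.106). Fzd3, a receptor known from planar polarity and axon guidance and the most abundant Frizzled gene in the SVZ, was at 6.45, 6.60 and 7.49 FPKM in SVZ KO and 7.33, 6.18 and 6.40 FPKM in SVZ control libraries. Fzd2 averaged 1.92 FPKM in SVZ KO and 3.43 FPKM in SVZ control, and Fzd6 averaged 1.53 FPKM in SVZ KO and 2.18 FPKM in SVZ control. Without KO a their log2 fold changes were -0.84 (limma adjusted p = 0.0674) and -0.44 (limma adjusted p = 0.0741), which missed the threshold. Median centring took both past it (-0.90, limma adjusted p = 0.0489 for Fzd2, and -0.50, limma adjusted p = 0.0476 for Fzd6), as did leaving out control a for Fzd2 (-1.04, limma adjusted p = 0.0299).

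Among the inhibitors, 1 passed, Sfrp1 in the SVZ without KO a. Sfrp1 (chr8:23411502-23449632, plus strand), which encodes a secreted Wnt-binding protein, had the lowest adjusted p of the 30 tested members in the SVZ without KO a. It was at 1.76, 1.07 and 1.09 FPKM in SVZ KO libraries, against 2.49, 2.44 and 3.17 FPKM in SVZ control libraries. KO b and c were at 0.400 of the control mean, and KO a lay between them and the lowest control. Its log2 difference was -0.82 (SE 0.126, 95% interval -1.12 to -0.53, limma adjusted p = 0.0144) without KO a, and -0.69 (SE 0.153, limma adjusted p = 0.366) with it. The call held when any 1 control library was left out as well (limma adjusted p up to 0.0362), and was lost without KO b (0.140) or KO c (0.109). In the DG, Sfrp1 was at 2.09, 4.41 and 2.69 FPKM in KO against 2.65, 1.82 and 2.41 FPKM in control, with overlap.

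Dkk2, an LRP antagonist under the filter, was lower in every SVZ KO library as well, at 0.340, 0.155 and 0.161 FPKM against 0.452, 0.473 and 0.352 FPKM in SVZ control libraries. It was named after its values were seen. Without the filter and without KO a it came to -0.30 on the log2 scale (SE 0.0652, limma adjusted p = 0.0400), a call lost in all 5 fits that left out 1 more library (limma adjusted p between 0.0516 and 0.272). Dkk3, a divergent family member whose relation to the LRP receptors is unsettled, had the largest log2 fold change of the tested members in the DG. It was at 18.3, 13.2 and 13.6 FPKM in DG KO libraries against 23.9, 24.6 and 59.2 FPKM in DG control libraries, without overlap, and DG control c stood far above the rest. The log2 fold change of -1.09 (SE 0.348) had a limma adjusted p of 0.118, and it was -0.67 without control c. KO libraries were below all control libraries for 7.43 percent of all genes in the DG, and Dkk3 was the 1 member among them. Sfrp5, a secreted inhibitor under the filter, was higher in every DG KO library, at 0.495, 1.11 and 0.481 FPKM against 0.477, 0.177 and 0.0498 FPKM in DG control libraries, by a narrow margin. In the SVZ, Dkk3 was at 35.3, 43.6 and 31.5 FPKM in KO against 47.5, 32.9 and 37.3 FPKM in control.

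Effectors gave no call either, and the level of the feedback target Axin2 was close between the groups. No other gene was read as a target, so this does not describe the targets of the pathway as a whole. Axin2 was at 5.32, 5.55 and 5.98 FPKM in DG KO against 5.01, 5.50 and 4.43 FPKM in DG control libraries (log2 fold change 0.15, 95% interval -0.085 to 0.38, limma adjusted p = 0.370). In the SVZ it was at 4.96, 4.94 and 4.67 FPKM in KO against 4.41, 4.62 and 4.78 FPKM in control (0.064, 95% interval -0.18 to 0.31, limma adjusted p = 0.817). The intervals give the range of changes compatible with the spread of these libraries, and do not show that Axin2 was equal. Lef1, a nuclear partner of beta-catenin, was at 0.677, 0.858 and 1.09 FPKM in DG KO against 0.916, 0.593 and 0.957 FPKM in DG control. In the SVZ it was at 0.925, 0.669 and 0.620 FPKM in KO against 0.447, 0.927 and 0.847 FPKM in control.

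Axin1, the scaffold of the destruction complex, was the 1 member higher in every KO library of both tissues. Over all genes this held for 25.1 percent in the DG and 7.47 percent in the SVZ. The share in both tissues together was not computed. Axin1 was at 6.34, 7.11 and 7.25 FPKM in DG KO against 5.30, 5.83 and 5.94 FPKM in DG control libraries (log2 fold change 0.24, limma adjusted p = 0.150). In the SVZ it was at 5.74, 6.05 and 6.47 FPKM in KO against 4.71, 5.41 and 5.22 FPKM in control (0.21, limma adjusted p = 0.450). Neither passed the threshold. All 7 effectors had a positive log2 fold change in the DG (median 0.19) and 3 of 7 in the SVZ (median -0.014), but the DG median of all genes was itself 0.090, and after quantile normalisation or median centring 6 of 7 were positive in the DG.

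Ctnnb1 was the most abundant member in both tissues. It was at 218, 242 and 254 FPKM in DG KO against 234, 179 and 216 FPKM in DG control libraries, and at 184, 240 and 231 FPKM in SVZ KO against 252, 216 and 203 FPKM in SVZ control libraries. Groups overlapped in both. Apc was at 55.5, 84.8 and 90.1 FPKM in DG KO against 52.7, 68.0 and 52.8 FPKM in DG control, and at 108, 94.5 and 92.6 FPKM in SVZ KO against 110, 103 and 98.8 FPKM in SVZ control. Its highest DG values were in KO b and c, but KO a lay below control b (log2 fold change 0.38, limma adjusted p = 0.276).

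The transcript rows behind these sums add detail for the members with several isoforms, since 27 of the 40 have a single row. Of Ctnnb1, the coding transcript Ctnnb1-201 held 43.3 percent in DG KO and 47.6 percent in DG control, and 54.6 percent in SVZ KO and 49.5 percent in SVZ control. Ctnnb1-215, a retained-intron transcript of 1 exon, held 33.9 percent in DG KO and 27.2 percent in DG control, and 15.8 percent in SVZ KO and 23.4 percent in SVZ control. These shares are of group means, and the libraries overlapped in both tissues for both transcripts. In the SVZ, Ctnnb1-215 was at 15.6, 16.3 and 15.6 percent in KO libraries against 36.7, 20.7 and 9.86 percent in control. The gene Ulk4 on the opposite strand shares 14.6 percent of the exon bases of Ctnnb1, and without a stated library strand reads of these bases cannot be told apart. Whether the shared bases lie in Ctnnb1-215 was not examined. Lef1-202 held 18 percent of Lef1 in DG KO and 49.0 percent in DG control, and 24.9 percent in SVZ KO and 62.1 percent in SVZ control. The libraries overlapped, since SVZ KO c was at 66.0 percent and DG control c at 23.2 percent. Wnt9a-201 held 4.86 percent of Wnt9a in DG KO and 26 percent in DG control, and 4.48 percent in SVZ KO and 8.79 percent in SVZ control. Its share was lower in every KO library than in every control library of both tissues. The SVZ margin was narrow, with KO b at 4.9 percent and control c at 5.69 percent. This transcript was named after its values were seen, and its share was not tested. Of the 40 members, 9 share exon bases with another gene, and none of Sfrp1, Wnt7a, Wnt2 and Wnt10a does.

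**Figure D4:**
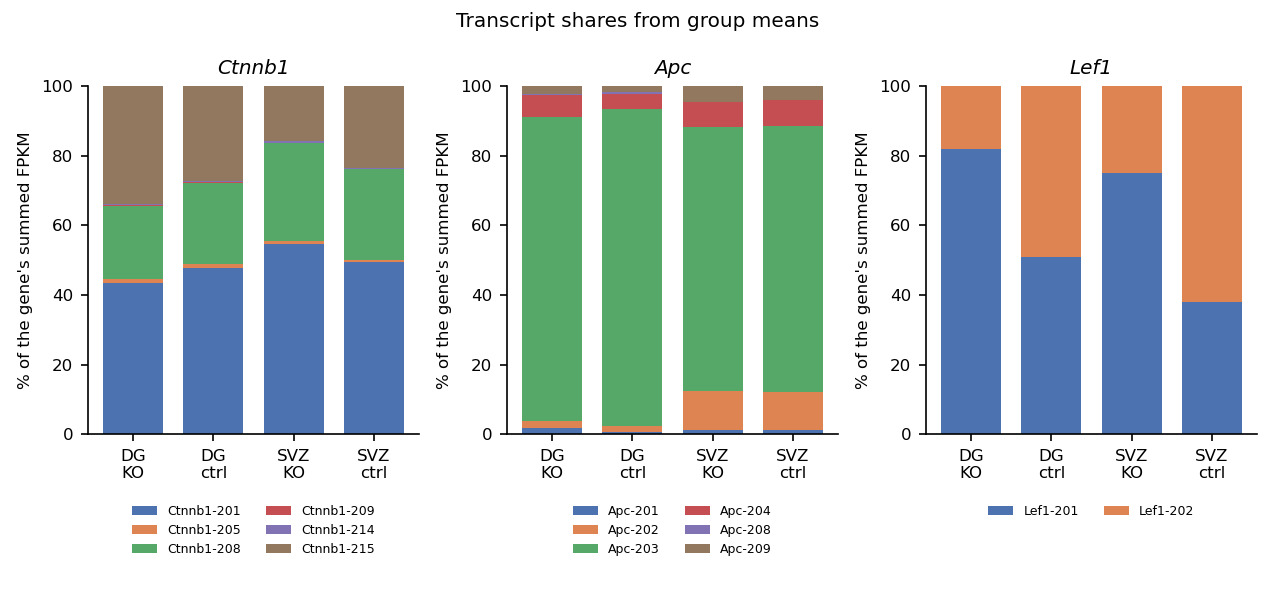
Share of each transcript in the group's mean FPKM of Ctnnb1, Apc and Lef1 (percent, stacked bars), KO left of control in each tissue. Lef1-202 takes 18 percent in DG KO and 49.0 percent in DG control, whereas Apc-203 takes most of Apc in every group.

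The authors' deposited table of transcript comparisons gave 65 member transcripts in each tissue. In the authors' deposited table, 6 member transcripts of the DG had a p-value under 0.05, 4 higher and 2 lower in KO, with a lowest step-up FDR of 0.160, against 14.3 percent of all 40483 transcripts. For the SVZ the authors' deposited table had 8, 3 higher and 5 lower in KO, with a lowest step-up FDR of 0.419, against 10.1 percent of all transcripts. The lowest of these p-values in the authors' deposited table was 0.000783, for Wnt9b-201 in the SVZ, followed by Sfrp1-201 with 0.00431. In the DG the lowest in the authors' deposited table was 0.00407, for Dkk3. Wnt9a-201, lower in KO, had a p-value of 0.024 (step-up FDR 0.27) for the DG in the authors' deposited table, and 0.238 for the SVZ.

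Whether the KO effect differed between the tissues was tested as an interaction, SVZ minus DG, over 14913 genes. None of the 28 members tested in both tissues passed, where 0.0335 percent of all genes did, and 3 members were at an unadjusted p under 0.05, against 16 percent of all genes. Sfrp1 came closest, with a difference of -0.96 on the log2 scale (limma adjusted p = 0.151, and 0.0995 without SVZ KO a). The DG and SVZ effects of Sfrp1, Wnt7a and Wnt2 are therefore not shown to differ. Without SVZ KO a again no member passed, against 0.429 percent of all genes, and 5 members were at an unadjusted p under 0.05, against 18.4 percent.

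Markers of several cell types moved with the SVZ comparison. In bulk tissue, fewer cells of a type and less RNA per cell cannot be told apart. In every SVZ KO library against every SVZ control library, the summed markers were lower for astrocytes (403 to 672 FPKM against 704 to 957 FPKM, 5 of 7 genes lower in every KO library), endothelial cells and pericytes (61.3 to 73.0 against 77.4 FPKM and more, 7 of 10) and microglia (49.3 to 72.7 against 81.1 to 103 FPKM, 5 of 6). The same held for striatal neurons (349 to 401 against 439 to 584 FPKM, 4 of 7), fibroblasts (32.4 to 43.7 against 46.7 to 61.5 FPKM, 3 of 11) and oligodendrocyte precursors (32.7 to 54.3 against 57.0 to 70.9 FPKM, 1 of 5). The summed markers of neural stem cells and radial glia overlapped, at 241 to 320 FPKM in KO and 269 to 331 FPKM in control. Of these 9 genes, 4 were nevertheless lower in every KO library and 0 higher, beside 8.07 and 7.47 percent of all genes. Myelin markers summed to 3890, 270 and 207 FPKM in SVZ KO a, b and c, against 2990 to 5950 FPKM in SVZ control, so KO a resembled control in these genes as in Dpy30. Their part in the results for Sfrp1, Wnt7a, Wnt2, Wnt10a and Wnt9b was not tested. No marker list summed higher in every SVZ KO library. Without KO a, 5 markers of hippocampal CA pyramidal neurons did, at 98.7 and 109 FPKM in KO b and c (89.0 FPKM in KO a) against 62.0 to 94.7 FPKM in control, 2 of the 5 genes higher in both, and their part in the higher ligands was not tested either.

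In the DG, KO libraries were lower in the summed markers of astrocytes (265 to 291 against 411 to 556 FPKM, 4 of 7 genes), myelin (131 to 136 against 245 to 2420 FPKM, 8 of 8) and oligodendrocyte precursors (46.0 to 53.2 against 68.8 to 80.8 FPKM, 2 of 5). Another 1 of the 5 precursor genes was higher in every DG KO library. The summed markers of dentate granule neurons were lower in KO as well (23.6 to 27.5 against 33.8 to 47.9 FPKM, 1 of 6 genes). Over all genes of the DG, KO libraries lay below all control libraries for 7.43 percent. The DG KO libraries were higher in the summed markers of neural stem cells and radial glia (527 to 952 against 285 to 400 FPKM). Of these 9 genes, only 2 were higher in every KO library, beside 25.1 percent of all genes. The part of all these marker lists in the values of Lrp6, Dkk3 and Axin1 was not tested. With a term for the 3 DG libraries of high striatal marker level, no member passed in limma and 20 of all genes did, against 108 without it, and Dkk3 was at -0.92 (limma adjusted p = 0.154), Lrp6 at 0.30 (0.116) and Axin1 at 0.21 (0.202).

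A wider list of 59 other Wnt pathway genes, of which 57 are in the tables, was read in the same fits. In the DG, 1 of 51 tested passed, beside 0.699 percent of all genes, and 13 were at an unadjusted p under 0.05, beside 26.5 percent. The gene that passed was Rspo1, which encodes an R-spondin that strengthens Wnt signals at the receptor. It was at 0.459, 0.191 and 0.590 FPKM in DG KO libraries against 2.1, 1.73 and 1.49 FPKM in DG control libraries (log2 fold change -0.98, SE 0.141, limma adjusted p = 0.0481), and lost the call in all 6 fits that left out 1 library (limma adjusted p between 0.0581 and 0.196). The next largest DG changes without overlap were Ror2 (0.45, limma adjusted p = 0.0758), Myc (0.44, 0.0984), Rnf43 (0.42, 0.117), Dact3 (-0.36, 0.194) and Ptk7 (0.34, 0.161). Of the 57 genes, 6 were higher and 8 lower in every DG KO library, beside 25.1 and 7.43 percent of all genes. In the SVZ 0 of 49 passed in limma with all libraries, with 5 at an unadjusted p under 0.05, beside 12.7 percent of all genes. Without KO a 4 of 49 passed, beside 8.7 percent of all genes, and 20 were at an unadjusted p under 0.05, beside 27.4 percent. Frzb, a secreted Frizzled-related inhibitor, fell to 1.64 and 2.38 FPKM in SVZ KO b and c (4.63 FPKM in KO a), against 5.20, 4.11 and 4.59 FPKM in SVZ control libraries (-0.91, limma adjusted p = 0.0183). Kremen1, a Dickkopf co-receptor, rose (4.27, 8.12 and 6.52 FPKM in SVZ KO against 4.49, 4.20 and 4.41 FPKM in control, 0.63, limma adjusted p = 0.0299).

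The planar polarity cadherins Celsr2 (19.4, 22.5 and 25.0 FPKM in SVZ KO against 14.7, 18.2 and 15.5 FPKM in control, 0.53, limma adjusted p = 0.0467) and Celsr1 (0.305, 1.52 and 1.24 FPKM in KO against 0.443, 0.303 and 0.802 FPKM in control, 0.66, limma adjusted p = 0.0481) also rose without KO a. Celsr2 was higher in every KO library, KO a included, whereas KO a lay within the control range for Frzb, Kremen1 and Celsr1. Leaving out 1 more library ended the call of Frzb in 3 of 5 fits, and of Kremen1, Celsr1 and Celsr2 in 4 of 5 each. In the DG, Celsr2 was lower in every KO library, at 18.8, 17.5 and 16.1 FPKM against 23.0, 22.0 and 21.5 FPKM in DG control libraries (-0.33, limma adjusted p = 0.0773). The difference of its KO effects, SVZ minus DG, passed without SVZ KO a (0.86, SE 0.143, limma adjusted p = 0.0413), 1 of 48 genes of the wider list beside 0.429 percent of all genes, and missed the threshold with all 12 libraries (0.77, limma adjusted p = 0.0795).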

How the data were processed

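PolyA-selected RNA of 12 mouse libraries was sequenced, 3 in each of 4 groups given by the labels. Per the submitters' processing notes, CASAVA 1.8.4, TopHat2 2.1.0 and Partek were used with GRCm38 (mm10), and the sources used here name no further settings. The authors deposited FPKM per transcript in 1 table for each tissue, with TMM in the file names, and a table of their own comparison with a p-value, a step-up FDR and a signed fold (control over KO) per transcript. Rows of both kinds were joined by gene name and group means (relative tolerance 0.0001), which matched all 40483 rows of each tissue, 56 (DG) and 64 (SVZ) of them to several transcripts, and transcripts were summed to 17972 genes. TMM takes most genes as unchanged, and FPKM moves with all other RNA of a library.

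Between 52.9 and 65.0 percent of low values lay within 0.1 of a whole read (chance gives 20 percent), so reads were not recovered and no count model was fitted. The test, limma 3.58.1 under R 4.3.3 with an intensity trend, ran on log2(FPKM + 1) of genes that averaged 0.5 FPKM or more in a tissue, KO minus control, with Benjamini-Hochberg adjustment over all tested genes and a threshold of 0.05. This scale understates changes of low genes. Ratios in the text are of mean FPKM. Intervals are at 95 percent. The fit was tested on simulated data. Figures used matplotlib 3.10.9.

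The members, the other gene lists and the marker lists were chosen with earlier results of these data known. Values in every library are given for members past the threshold in any comparison, for the 5 largest changes without overlap and the 5 highest levels in each tissue, and for Axin2, Lef1, Ctnnb1 and Dpy30, and for a few further genes named after their values were seen.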

Additional observations from a re-analysis of the deposited data

Results flagged for a closer look

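Celsr2 was singled out because its KO libraries moved in opposite directions in the tissues: its SVZ KO libraries were all higher than SVZ control, and its DG KO libraries were all lower than DG control. The tested difference of the KO effects, SVZ minus DG, was 0.858 on the log2 scale without the library labelled SVZ KO a (limma adjusted p = 0.0413) and 0.766 with all 12 libraries (limma adjusted p = 0.0795). Wls, which encodes the carrier that brings Wnt ligands to the cell surface, was singled out for the same reason in the other direction, with means of 7.62 FPKM in SVZ KO and 9.65 FPKM in SVZ control, and 8.27 FPKM in DG KO and 6.51 FPKM in DG control. Its difference of -0.615 with all 12 libraries did not pass (limma adjusted p = 0.167), nor did -0.73 without SVZ KO a (limma adjusted p = 0.0891). Celsr2 and Wls were picked by the same library values that enter these differences, so the p-values are not independent of the choice. The share of all genes that moved in opposite directions was not computed. Whether the call of Celsr2 held with 1 more library left out was not examined.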

How the results depend on the processing

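The count of members past the threshold stayed at 0 in the DG under every alternative tried, and at 0 in the SVZ with all 6 libraries under every alternative other than leaving out 1 library, where it ran from 0 to 4. Without the library labelled SVZ KO a it was 4, and it became 7 without the filter (the 4 with Dkk2, Wnt1 and Wnt9b), 2 with a limit of 2 FPKM (Sfrp1 and Wnt7a), 5 with quantile normalisation (the 4 with Wnt9a), 7 with median centring (the 4 with Fzd2, Fzd6 and Wnt9a), 2 with the highest transcript row of each gene (Sfrp1 and Wnt10a) and 7 without the filter at a pseudocount of 0.1 (the same as without the filter). It ran from 0 to 4 when 1 more library was left out, with 0 without KO b or KO c, 2 without control a (Fzd2 and Sfrp1) or control c (Sfrp1 and Wnt10a) and 4 without control b. Over all genes, the 108 calls of the DG became 0 to 3 when 1 library was left out, and the 1318 calls of the SVZ without KO a became 103 to 1368. Causes were not tested.

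Among tested members, those whose log2 fold change turned sign were 6 of 29 in the DG with quantile normalisation, 5 of 29 with median centring and 3 of 29 with the term for striatal markers, and at most 3 of 30 in the SVZ with either set of libraries under alternatives that left out none. None of them passed in that same comparison. The values below are of the genes given in every library by rule. In the DG, Lef1 became -0.072 with quantile normalisation and -0.036 with median centring, and Wnt2 became -0.067, -0.040 and, with the term for striatal markers, -0.014. In the SVZ, Ctnnb1 became 0.027 with quantile normalisation and 0.099 with the highest transcript row, and Lef1 became -0.027 with median centring. Axin2 became -0.0084 in the SVZ without KO a with median centring. Without SVZ KO a, the difference between tissues became 0.0098 for Axin1 and -0.21 for Dpy30. Leaving out 1 library gave log2 fold changes of -0.039 to 0.19 for Fzd3, -0.053 to 0.12 for Lef1 and -0.15 to 0.17 for Wnt2 in the DG. The same in the SVZ gave -0.11 to 0.079 for Ctnnb1, -0.21 to 0.055 for Dkk3, -0.018 to 0.10 for Fzd3, -0.12 to 0.084 for Lef1, -0.0075 to 0.099 for Lrp6 and -0.12 to 0.27 for Wnt7b. In the SVZ without KO a it gave -0.29 to 0.16 for Dkk3, -0.0038 to 0.16 for Fzd3, -0.20 to 0.0082 for Lef1 and -0.0081 to 0.38 for Wnt7b. For the difference between tissues it gave -0.078 to 0.017 for Axin1, -0.048 to 0.16 for Dpy30, -0.18 to 0.38 for Fzd10, -0.15 to 0.079 for Fzd3, -0.16 to 0.058 for Lef1 and -0.59 to 0.095 for Wnt7b.

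No paired analysis was possible because the table columns carry the group and no replicate number. The fits without the filter at a pseudocount of 0.1, with a term for striatal markers, and without the filter with 1 library left out were added after seeing the data. Depth limits the low ligands most, since 1 FPKM in a transcript of 1 kb stands for 26.6 to 66.1 reads, and without KO a, single libraries decided the SVZ calls named above, Wnt9b without the filter excepted.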
